A study of Arabidopsis thaliana with 12 samples.

Results

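Arabidopsis genes for proteins that build the photosystems or sit in the thylakoid lumen are described here on arrays of the psao mutant and of wild-type (WT) plants. The 5 loci are AT1G22700 (PYG7), AT4G24930, AT1G76450 (PPD3), AT1G03600 (PSB27) and AT1G05385 (LPA19). Each is read by 1 probe that the platform annotation pairs with that gene alone. They make up 5 of the 692 probes with 1 gene and of the 3439 probes in the deposited table. The loci were selected on their function with the psao and WT intensities of all 12 arrays known, so that these intensities also count as having chosen them. Their differences between the genotypes are therefore given as a description, with no test.

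The psao plants carry a mutation that removes PSI-O, a subunit of photosystem I in the thylakoid membrane, and both genotypes are of ecotype Columbia 0. Total RNA was measured on 6 psao arrays and 6 WT arrays. The nature of the mutation, the tissue, the age and growth of the plants, and whether arrays came from separate plants are not given in the sources used here. All p-values and SEs below therefore reflect array-to-array spread only, part or all of which can be technical. Less RNA per cell cannot be told apart from fewer cells of a type.

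Intensities in the table are relative to the brightest probe of each array, which stands at 100. Array medians lay between 0.198 and 0.273 in psao and between 0.0970 and 0.195 in WT, a range of 1.15 log2 units over the 12 arrays. Exact zeros made up 4.22% to 7.33% of probes on psao arrays and 4.68% to 15.1% on WT arrays. For comparisons, log2 values were quantile normalized, which gives all arrays the same distribution, and zeros were left out. Neighbouring numbers (1 with 2, 3 with 4, 5 with 6) gave similar arrays within a genotype, for which the labels give no reason, and they are called the first, the second and the third couple. Before normalization the median log2 intensity was higher in psao by 1.14 in the first couple, by 0.12 in the second and by 0.33 in the third.

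Photosystem II splits water on the lumen side of the thylakoid membrane, and photosystem I passes the electrons on to ferredoxin in the stroma. Both complexes hold subunits made in the chloroplast and subunits imported from the cytosol, and assembly factors bring these together in steps. The lumen holds extrinsic subunits, electron carriers, proteases and folding helpers, and several of its proteins act only while photosystem II is being built or repaired. PYG7 is a thylakoid protein needed for photosystem I to accumulate, related to cyanobacterial Ycf37. PPD3 belongs to the PsbP-domain family, named after the PsbP subunit of photosystem II. PSB27 and LPA19 are both relatives of cyanobacterial Psb27, a lumen protein bound to immature or damaged photosystem II. LPA19 takes part in the C-terminal processing of the D1 precursor, a core protein of photosystem II.

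The 5 genes did not move as a group. PYG7 and AT4G24930 were about 4-fold higher in psao, at 3.76-fold and 4.13-fold after normalization. PPD3 was 1.93-fold lower and LPA19 2.41-fold lower in psao. The PSB27 signal was 0.977-fold that of WT over all arrays, with couples of arrays that pointed in opposite directions. The median difference of the 5 genes was -0.03 log2 units, against -0.04 for all 3187 tested probes. The first is the value of PSB27 itself, and the second depends on the scaling, at 0.43 with values as deposited. Nothing is read from their closeness. In 3 of the 5 genes the psao arrays did not overlap the WT arrays, 2 of them higher and 1 lower in psao. Over all tested probes this held for 19.7%, with 10.2% higher and 9.51% lower.

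**Figure D1:**
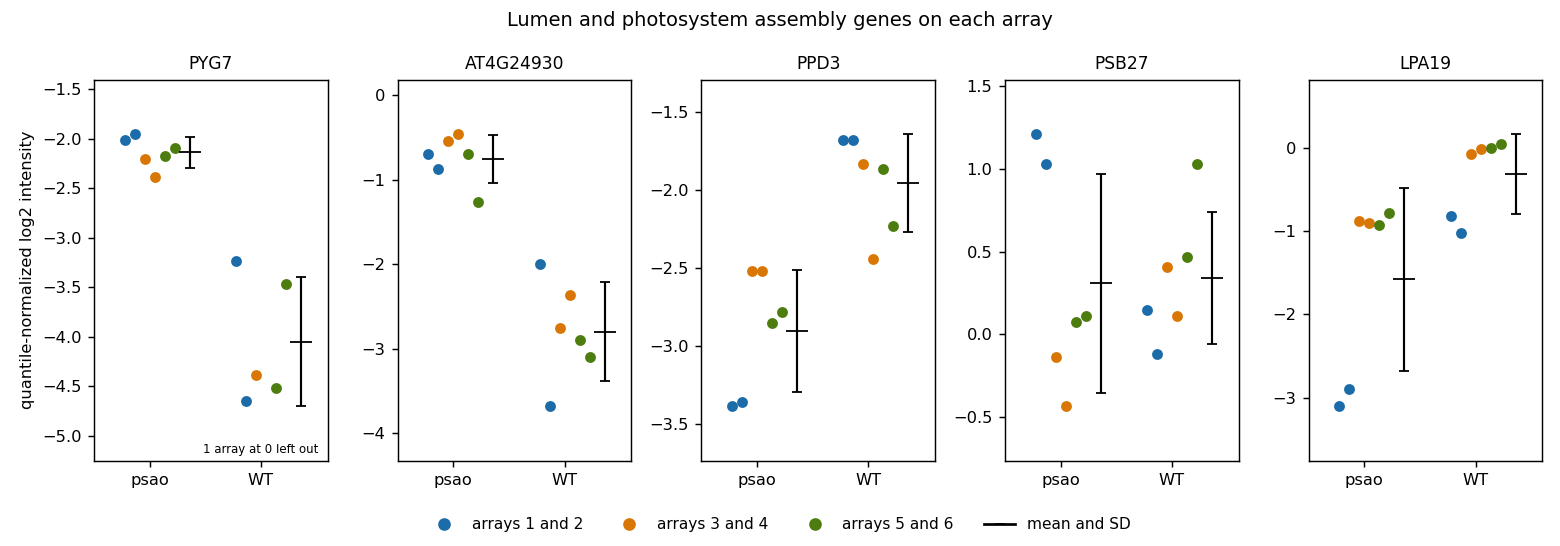
Quantile-normalized log2 intensity of the 5 genes on each array (points, coloured by couple of arrays) in psao (left) and WT (right), with the mean and SD of each group; vertical axes differ between panels. PYG7 and AT4G24930 lie higher on all psao arrays, PPD3 lies lower on all of them, and LPA19 and PSB27 overlap between the genotypes.

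Of the photosystem I side, PYG7 was higher in psao and dim in WT. Its deposited intensity was 0.342, 0.358, 0.219, 0.195, 0.268 and 0.278 on psao arrays 1 to 6, against 0.0592, 0.0181, 0.0435, 0, 0.0411 and 0.0853 on WT arrays 1 to 6. Every psao array lay above every WT array, and WT array 4 was listed at 0. All 6 WT values, and 1 of the 6 psao values, lay below the median intensity of their array. The WT level therefore rests on weak signals, and the size of the fold with it.

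After normalization PYG7 stood at -2.14 ± 0.16 log2 units in psao (SD, n = 6) and at -4.05 ± 0.65 in WT (SD, n = 5, without the zero). The difference was 1.91 ± 0.27 log2 units (SE), and the lowest psao array lay 0.85 above the highest WT array. The psao arrays thus lay close together, while WT spread over a wider range. In the 5 same-numbered sets with a WT signal the psao array was higher by 1.23 to 2.69 log2 units. The difference was 1.96 in the first couple, 2.09 in the second and 1.85 in the third. That of the second couple rests on 1 WT array, because the other stood at 0. The 2 WT arrays of the first couple lay 1.41 log2 units apart, and those of the third 1.05. With values as deposited the difference over all arrays was 2.62. An offset of 0.05 before the log, which keeps the zero, gave 1.40.

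AT4G24930, annotated as a protein of the thylakoid lumen, had a difference close to that of PYG7, somewhat above it after quantile normalization and somewhat below it with median centring or as deposited. On psao arrays 1 to 6 it was deposited at 0.703, 0.642, 0.697, 0.741, 0.675 and 0.463, against 0.171, 0.0404, 0.137, 0.181, 0.130 and 0.111 on WT arrays 1 to 6. The lowest psao value, on array 6, was still far above the highest WT value, on array 4. WT array 2 was the lowest, as it was for PYG7 among the WT arrays with a signal. All psao values lay above the median intensity of their array, whereas 5 of the 6 WT values lay below it.

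Normalized, AT4G24930 stood at -0.75 ± 0.29 log2 units in psao and at -2.80 ± 0.58 in WT (SD, n = 6 each). The difference was 2.05 ± 0.27 log2 units (SE), with 0.74 between the lowest psao and the highest WT array. It was nearly the same in the 3 couples, at 2.05, 2.06 and 2.02. The 2 WT arrays of a couple, however, lay 1.69, 0.38 and 0.20 log2 units apart, and the 2 psao arrays 0.18, 0.08 and 0.57. The couples thus differed by less than the arrays within them. Before normalization the couples gave 3.02, 2.19 and 2.22, with the highest value in the first, where the array medians also stood furthest apart. Both AT4G24930 and PYG7 had an absolute difference of at least 1.9, which 5.49% of all tested probes reached. That bound lies just under the difference of PYG7 itself, so the share is a description only.

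**Figure D2:**
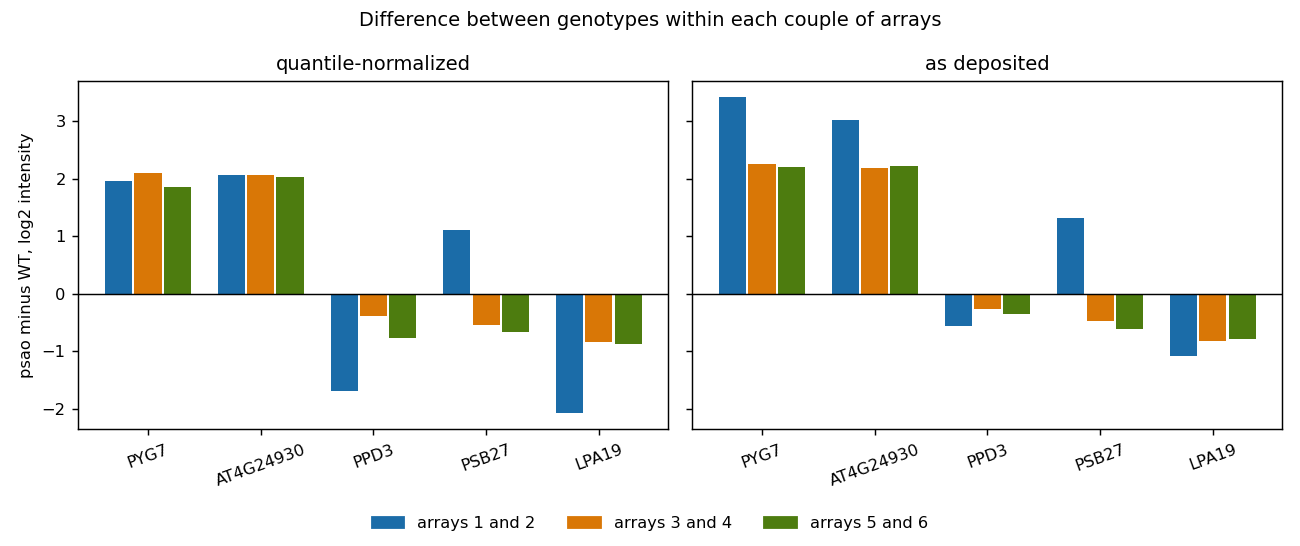
Difference of psao minus WT in log2 intensity within the first, the second and the third couple of arrays (bars, from 0, left to right), after quantile normalization (left) and as deposited (right). PYG7 and AT4G24930 stand above 0 in every couple, PPD3 and LPA19 below 0, and PSB27 is above 0 in the first couple alone.

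PPD3, the PsbP-domain protein, was lower in psao, by less than the first 2 genes differed. The deposited values of PPD3 were 0.145, 0.154, 0.178, 0.178, 0.179 and 0.184 on psao arrays 1 to 6, against 0.223, 0.219, 0.267, 0.172, 0.266 and 0.202 on WT arrays 1 to 6. On this scale the groups overlapped, because WT array 4 lay below 4 of the psao arrays. All 6 psao values lay below the median intensity of their array, against 1 of the 6 WT values.

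After normalization PPD3 stood at -2.90 ± 0.39 log2 units in psao and at -1.96 ± 0.31 in WT (SD, n = 6 each), a difference of -0.95 ± 0.22 (SE). The groups no longer overlapped, with a gap of 0.07 log2 units. The psao array was lower in all 6 same-numbered sets, with differences from -1.71 to -0.07 log2 units. By couple the difference was -1.70, -0.38 and -0.77. Taken from the deposited values it was -0.39, and arrays 3 to 6 alone gave -0.56. The direction of PPD3 was thus shared by the couples, while its size depended on the first couple and on the scaling.

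Of the Psb27 relatives, PSB27 showed no common direction. Deposited intensities of PSB27 were 2.23, 2.07, 0.928, 0.751, 1.08 and 1.10 on psao arrays 1 to 6, against 0.955, 0.775, 1.27, 1.06, 1.39 and 1.99 on WT arrays 1 to 6. Arrays 1 and 2 were the highest of psao, and WT arrays 1 and 2 were the lowest of WT. Normalized levels were 0.31 ± 0.66 in psao and 0.34 ± 0.40 in WT (SD, n = 6 each), a difference of -0.03 ± 0.31 log2 units (SE). The first couple differed by 1.10, whereas the second and the third differed by -0.55 and -0.66. Arrays 3 to 6 alone gave -0.59, and the difference changed sign to 0.08 with values as deposited. It was above 0 in 6 of 23 alternatives and below 0 in 17. On all 12 arrays PSB27 lay above the median intensity of the array.

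LPA19 was lower in psao on every same-numbered array, with a size that differed between couples. The table gave LPA19 at 0.175, 0.204, 0.543, 0.531, 0.584 and 0.621 on psao arrays 1 to 6, against 0.439, 0.368, 0.925, 0.967, 1.03 and 1.05 on WT arrays 1 to 6. Within each genotype arrays 1 and 2 were far lower than the other 4, and those of WT lay below all of psao arrays 3 to 6. The groups therefore overlapped, although the psao array was lower in 6 of 6 same-numbered sets. On psao arrays 1 and 2 LPA19 lay below the median intensity of the array, and on all other arrays above it.

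Normalized, LPA19 stood at -1.58 ± 1.10 log2 units in psao and at -0.32 ± 0.48 in WT (SD, n = 6 each), a difference of -1.27 ± 0.45 (SE). By couple it was -2.08, -0.84 and -0.88. As deposited, the couples were closer to each other, at -1.09, -0.82 and -0.78. Arrays 3 to 6 alone gave a normalized difference of -0.84. The 2 arrays of a couple differed by at most 0.21 log2 units in LPA19, so that most of its spread within a genotype lay between couples.

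In the limma fit over all probes, 3 of the 5 genes lay past the adjusted threshold of 0.05, PYG7 and AT4G24930 upward and PPD3 downward, beside 29.8% of all tested probes (14.8% higher and 15.0% lower in psao). LPA19 and PSB27 did not pass. Because the genes were chosen with this comparison known, nothing is read from that count. With the array number as a block, LPA19 passed as well, which made 4, beside 1090 of the 3187 tested probes. With couples averaged, PYG7 and AT4G24930 passed upward and PPD3 did not pass, beside 1.70% of all probes upward and 0.300% downward. PYG7 passed in all 22 alternatives that could measure it and AT4G24930 in all 23. PPD3 passed in 20 and LPA19 in 11 of 23, and PSB27 in none of them. Neither PPD3 nor LPA19 passed with values as deposited, with couples averaged or with couples as a random block. Over all probes the number past the threshold ran from 60 to 1228 in the same 23 alternatives. As 12 of the 23 only leave out a single array, the alternatives are not independent of each other. They reuse the arrays with which the genes were chosen, so nothing is read from these counts either. Among single arrays, leaving out psao replicate 3, 4 or 6 or WT replicate 2 made LPA19 pass.

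**Figure D3:**
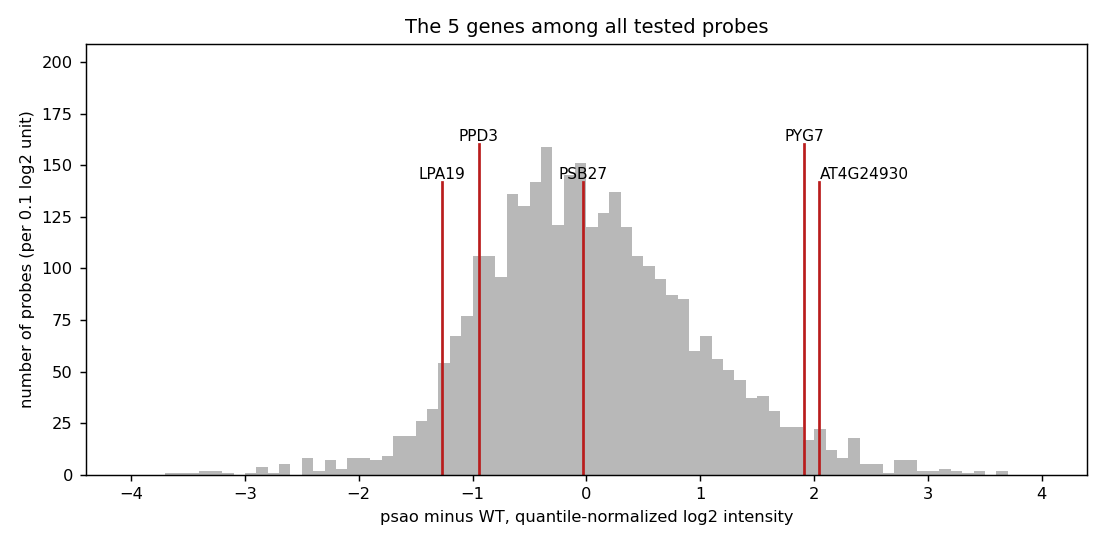
Number of tested probes (vertical axis, per 0.1 log2 unit) by difference of psao minus WT in quantile-normalized log2 intensity (horizontal axis), with the 5 genes marked by lines. PYG7 at 1.91 and AT4G24930 at 2.05 lie in the upper tail, LPA19 at -1.27 and PPD3 at -0.95 on the lower side, and PSB27 at -0.03 in the middle.

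Among all tested probes, 135 had a larger absolute difference than AT4G24930 and 173 than PYG7. For LPA19 the number was 518, for PPD3 940 and for PSB27 3097. The differences of PYG7 and AT4G24930 lay at the 96.3 and 97.0 percentile of all probes, PPD3 at 13.3 and LPA19 at 5.77. PSB27, at 50.4, stood in the middle.

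Ratios of these genes within an array do not depend on scaling between arrays. Of the 10 ratios among the 5 genes, 6 did not overlap between psao and WT, and each of these set PYG7 or AT4G24930 against PPD3, PSB27 or LPA19. Over all pairs of tested probes this held for 17.8%, and genes that part in opposite directions give such ratios by construction. PSB27 differed by only -0.03 after normalization, with overlapping groups. On that scale the difference in its ratios with PYG7 and AT4G24930 lay mainly in those genes. The log2 ratio of AT4G24930 over PPD3 was 1.93 ± 0.32 in psao and -0.93 ± 0.85 in WT (SD, n = 6 each), which differ by 2.87 ± 0.37 (SE). The ratio of PYG7 over PPD3 differed by 3.09 ± 0.44 (SE, 6 psao and 5 WT arrays). These ratios show unequal change of the genes they join, and not which of them changed.

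The ratio of PYG7 over AT4G24930 stood at -1.26 ± 0.47 in psao (SD, n = 6) and at -1.28 ± 0.54 in WT (SD, n = 5), which differ by 0.02 ± 0.31 (SE). The arrays of the genotypes overlapped, and the SE leaves room for unequal change in either direction. For PPD3 over LPA19 the difference was 0.50 ± 0.41 (SE), also with overlapping arrays. PSB27 over LPA19 was 3.67 and 3.34 on psao arrays 1 and 2 and between 0.50 and 0.89 on psao arrays 3 to 6, against 0.14 to 1.12 on all WT arrays. The Psb27 relatives therefore parted on psao arrays 1 and 2 alone, where PSB27 was highest and LPA19 lowest.

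**Figure D4:**
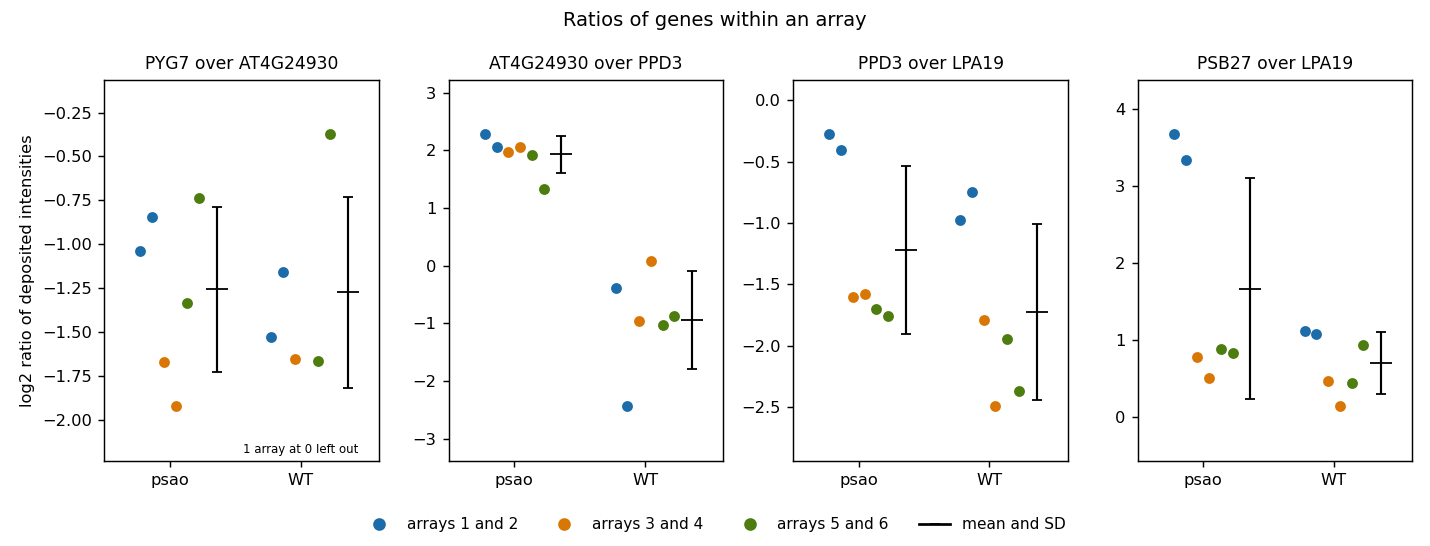
Log2 ratios of deposited intensities of 2 genes on the same array (points, coloured by couple) in psao (left) and WT (right), with the mean and SD; vertical axes differ between panels. The ratio of AT4G24930 over PPD3 lies above 1.33 on every psao array and at or below 0.08 on every WT array, and the other 3 ratios overlap.

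The rest of the lumen and assembly machinery was thinly covered. Of 90 other loci on the lists of lumen proteins and of assembly and insertion factors, 7 had a probe with 1 gene, and 6 of these could be tested. In limma 1 of the 6 rose, 1 fell and 4 did not pass, beside 29.8% of all tested probes. With couples as a random block 1 of the 6 passed, beside 330 of the 3187 probes. With couples averaged 0 of the 6 passed, beside 60 of the 3001 probes tested that way. In that limma fit 3 of the 6 had an unadjusted p under 0.05. The share of all probes at that p was not computed, so nothing is read from the 3. The median difference of the 6 was 0.36 log2 units, against -0.04 for all tested probes.

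AT1G74070, from the lumen list, rose in psao. The deposited intensity was 1.89, 2.01, 1.45, 1.30, 1.35 and 1.42 on psao arrays 1 to 6, against 0.488, 0.355, 0.613, 0.582, 0.676 and 0.599 on WT arrays 1 to 6. No psao array overlapped a WT array. Normalized, it stood at 0.58 ± 0.28 in psao and at -0.77 ± 0.15 in WT (SD, n = 6 each), 2.55-fold higher in psao (limma adjusted p = 0.000178; the 23 alternatives gave 3.38e-05 to 0.0730). The difference of 1.35 ± 0.17 log2 units (SE) was 1.79, 1.12 and 1.13 in the 3 couples. With couples averaged it did not pass (limma adjusted p = 0.0730, within the range just given).

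ATAB2, which in Arabidopsis takes part in the translation of photosystem proteins in the chloroplast, fell in psao on dim signals. Deposited values were 0.0609, 0.0933, 0.0285, 0.0317, 0.0365 and 0.0287 on psao arrays 1 to 6, against 0, 0.0826, 0.0448, 0.0557, 0.0409 and 0.0538 on WT arrays 1 to 6. On psao arrays 1 and 2 the deposited values were higher than those of the same-numbered WT arrays, and the groups overlapped. After normalization the difference was -1.04 ± 0.35 log2 units (SE, 6 psao and 5 WT arrays, limma adjusted p = 0.0424; the 22 alternatives gave 0.00474 to 0.445). With couples as a random block it did not pass (limma adjusted p = 0.133), nor with couples averaged (limma adjusted p = 0.193), both within the range just given. It passed in 8 of the 22 alternatives and was -0.36 with values as deposited. It did not pass without psao replicate 1, 3, 4, 5 or 6 or without WT replicate 2, 4 or 6. Without WT replicate 2 it was -0.73 (limma adjusted p = 0.0704).

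The other 4 did not pass. AT5G46390, of the lumen list, differed by 0.82 ± 0.30 log2 units (SE, limma adjusted p = 0.0560) and passed under 5 of the 23 settings tried, whose adjusted p lay between 0.00657 and 0.465. Without WT replicate 2 its difference was 1.04 and passed (limma adjusted p = 0.00657, the lowest of that range). AT5G35100, of the same list, differed by 0.47 ± 0.36 (SE, limma adjusted p = 0.350), with 1.92, -0.51 and -0.01 in the 3 couples. In that gene, as in PSB27, the couples pointed in different directions. AT1G54500, of the assembly list, differed by 0.25 ± 0.20 (SE, limma adjusted p = 0.369), and its sign turned when arrays were centred on their medians. PSAN, the lumen subunit of photosystem I, differed by -0.44 ± 0.27 (SE, limma adjusted p = 0.244) and passed under median centring alone of the 23 alternatives, at -1.02 (limma adjusted p = 0.00433). The seventh gene, AT5G52970, was above 0 on 3 psao and 2 WT arrays, at most at 0.0360 in psao and 0.0106 in WT, and was not tested. Among photosystem subunits outside the lumen, PSBY and PSBW of photosystem II also did not pass (limma adjusted p = 0.839 and 0.405), nor did they in any alternative, and the lists of seed and root markers had no probe with 1 gene.

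**Figure D5:**
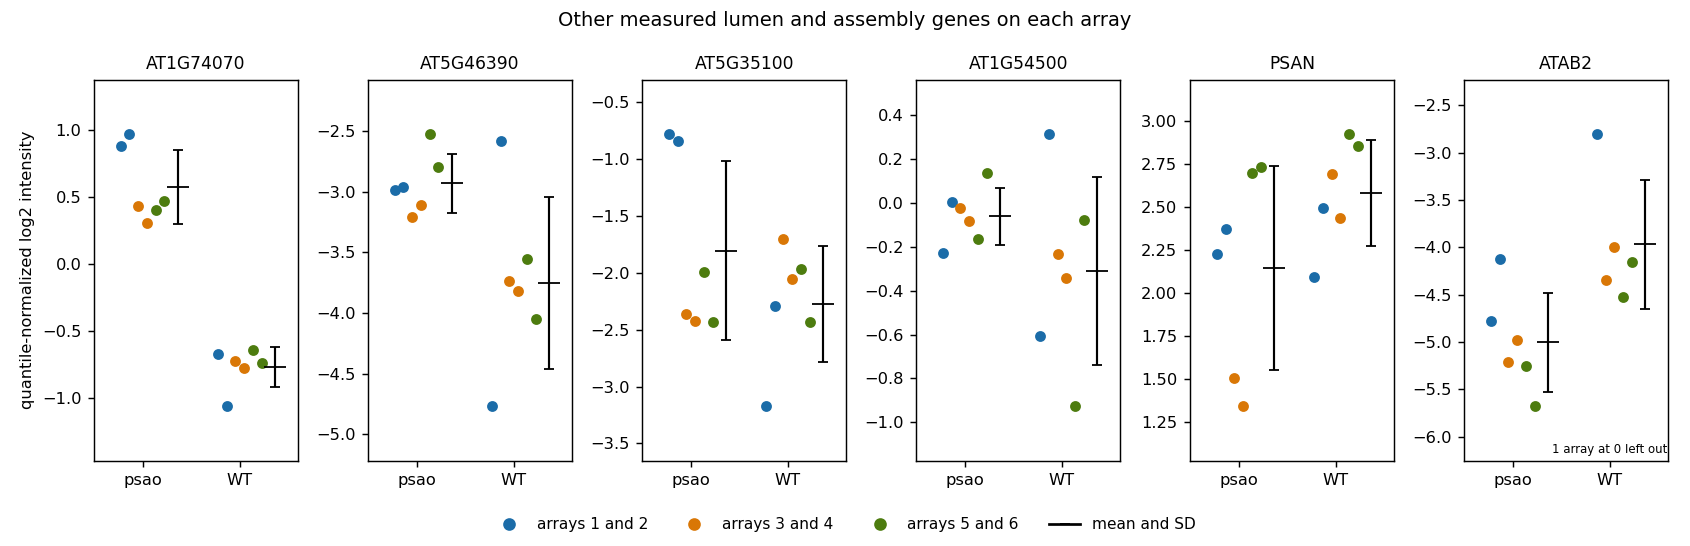
Quantile-normalized log2 intensity of the 6 other tested genes of the lumen and assembly lists on each array (points, coloured by couple) in psao (left) and WT (right), with the mean and SD; vertical axes differ between panels. AT1G74070 alone of the 6 has psao arrays that do not overlap WT.

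The genes with the pattern most like each of the 5 were found by the mean absolute difference between log2 values centred on each gene's own mean, over the arrays where the gene had a value. Candidates were the other 1-gene probes with a value on all 12 arrays, 481 for PYG7 and 480 for each of the others. Nearest to PYG7 were AT1G72020, AT5G42680 and AT3G19120, at 0.303, 0.303 and 0.327 log2 units over 11 arrays, where the median candidate stood at 1.03. Their own differences between psao and WT were 1.97, 1.70 and 2.07. Nearest to AT4G24930 were AT3G57440, AT3G23940 and AT5G48830, at 0.336, 0.358 and 0.362 over 12 arrays (median candidate 1.10).

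PPD3 had closer neighbours, with AT3G51500, AT1G21730 and AT1G03810 at 0.164, 0.201 and 0.202 (median candidate 0.674). Nearest to LPA19 were AT4G30680, AT4G26370 and AT2G47390, at 0.199, 0.223 and 0.247 (median candidate 0.886), and each of these was lower in psao by 0.82 to 1.02 log2 units. Nearest to PSB27 were GLR2.7, a glutamate receptor family gene, at 0.214, SECE1, a subunit of the chloroplast Sec translocase, at 0.263, and AT4G13680 at 0.278 (median candidate 0.673). Those 3 had differences of 0.07, 0.17 and 0.00 log2 units between psao and WT. Values were centred over the arrays of both genotypes, so that likeness takes in the difference between psao and WT. Neighbours with a difference near that of the gene itself are therefore picked by the measure. Likeness also takes in the differences between couples that many probes share, and is given as a description.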

How the data were processed

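The deposited table held 1 intensity per probe for 6 psao and 6 WT arrays, and groups and numbers came from the sample titles. The authors' deposited intensities are never negative and reach 100 on each array; what was done before that scaling, scanner, background treatment and spot averaging included, is not given in the sources used here. No depth can be read from arrays, and their number limits the precision.

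The platform annotation listed 1562 of 3439 probes, 692 with 1 gene and 870 with several. No probe with several genes included any of the 5. Of the 692, 690 matched the RefSeq gene table of TAIR10.1, used for names only. No genome build is named for the array, so no positions are printed. Sequences and promoter motifs were not analysed here.

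Zeros were set missing, at least 4 values per group were required (3187 probes tested, 252 left out), and log2 values were quantile normalized (limma 3.58.1, R 4.3.3). Genotypes were compared with lmFit and eBayes as psao minus WT, in both directions, and p-values were adjusted by Benjamini-Hochberg over all tested probes. The SE of a gene's difference is the moderated SE of this fit, and that of a ratio is not moderated. Both treat the arrays as independent, although arrays within a couple were alike, so they can be too small. The fit was tested on simulated data. Those arrays were drawn independently, without couples, so the simulation cannot show how the fit does on arrays that are alike within couples. Alternatives covered scaling, zeros, the filter, the array number as a block, couples averaged or as a random block (duplicateCorrelation, correlation 0.701), the variance prior, arrays 3 to 6 alone and each array left out. Same-numbered psao and WT arrays deviated together from their group means (r from 0.144 to 0.239 across probes). They were treated as paired in the block fit, and the labels do not say what the numbers stand for. Arrays of unlike number were not compared this way, so pairing by number was not told apart from likeness between couples.

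Named genes were the 5, every measured gene of the lists, and the 3 nearest in pattern to each. The 5 genes, the lists, the couples and the settings were chosen with earlier results of these data known.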

Additional observations from a re-analysis of the deposited data

Results flagged for a closer look

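In AT1G74070, WT replicate 2 stood at -1.07 normalized log2 units, with the nearest other of the 6 WT arrays at -0.78, and was flagged as far below the rest. The psao arrays of that gene lay between 0.31 and 0.97, and without WT replicate 2 it still passed. Such a look was taken at 26 sets of values, of which about 1 in 20 (1.3 here) would stand out by chance. None of the 5 genes had such an array. Single arrays were looked at, and not couples. LPA19 stood at -3.10 and -2.90 on psao arrays 1 and 2, against -0.93 to -0.79 on psao arrays 3 to 6, and was not flagged.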

How the results depend on the processing

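A total of 23 alternatives were run, 12 of which leave out an array. With an array left out, the count over all probes ran from 786 to 939 (949 with all arrays), that of the 5 genes from 3 to 4 (3), and that of the other lumen and assembly genes from 1 to 2 (2). The difference ran from 1.73 to 2.08 for PYG7, 1.83 to 2.17 for AT4G24930, -1.04 to -0.86 for PPD3, -1.44 to -0.97 for LPA19 and -0.21 to 0.11 for PSB27. The count over all probes was 60 with couples averaged (51 higher) and 330 with couples as a random block (188 higher). With values as deposited it was 986, of which 763 were higher, against 472 of 949 after normalization, and the median difference of all probes moved to 0.43 log2 units. The count of other lumen and assembly genes was 0 with couples averaged, and 1 with an offset before the log, with couples as a random block and with the trend and robust prior; it was 3 with median centring and with arrays 3 to 6, where the count over all probes was highest at 1228. In the limma fit of couple means with 0 of 6 past the threshold, 3 had an unadjusted p under 0.05. No share of all probes was computed at that p, and nothing is read from this count. The difference of PYG7 was 2.62 as deposited and 1.40 with the offset, PPD3 was -0.39 as deposited and -0.56 with arrays 3 to 6, and PSB27 was -0.59 with arrays 3 to 6. The cause was not tested. With the array number as a replicate block, 1090 of the 3187 probes passed, 4 of the 5 genes (LPA19 added) and 2 of the other genes. The difference of PYG7 was 1.96, and no other call named here changed. PYG7, AT4G24930, PPD3 and LPA19 kept their sign in every alternative that could measure them. PYG7 has a zero and could not be measured among probes above zero on all 12 arrays. Dim signals limit PYG7, ATAB2, AT5G46390 and AT5G52970, as well as the WT level of AT4G24930 and the psao level of PPD3. The same holds for LPA19 on psao arrays 1 and 2.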
